A study of Mus musculus with 6 samples.

Results

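The 7 transcription factor genes best known as drivers of epithelial-mesenchymal transition (EMT), Snai1, Snai2, Twist1, Twist2, Zeb1, Zeb2 and Prrx1, were followed with Vim, which is not a transcription factor but encodes vimentin, the intermediate filament protein of mesenchymal cells. They were taken as every probe set of the array whose annotated symbol was exactly 1 of these 8 genes, which gave 23 of 45101 probe sets. The tested samples were 3 pools of epithelium of the gonadal primordium from fetuses lacking both copies of Emx2 (Emx2 KO, labelled -/-), and the samples they were set against were 3 pools of the same epithelium from wild-type fetuses (+/+), all at E10.5 (days of gestation). Each pool held laser-microdissected cells of 3 fetuses, and 15 ng of its total RNA was amplified in 2 cycles and hybridised to 1 array. The mutation was present in the whole fetus, strain, sex and litter are not in the labels, and the p-values measure the spread between pools.

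In EMT, epithelial cells give up their junctions and polarity and become motile. Snail proteins (Snai1, Snai2) and the Zeb proteins are zinc finger repressors that bind the E-box letters CACCTG in the promoters of epithelial genes such as Cdh1, the Twist proteins are basic helix-loop-helix factors that bind E-boxes as dimers with E proteins, and Prrx1 is a homeodomain factor of limb and craniofacial mesenchyme. In the gonadal primordium, cells of the coelomic epithelium leave the surface layer and enter the tissue below while the gonad forms.

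The values are scaled intensities in arbitrary units, which can be set between pools for 1 probe set but not between probe sets. Emx2 itself, by its only probe set, read 1676, 1478 and 1747 in the KO pools and 1305, 2119 and 1727 in the wild-type pools (log2 fold change -0.047, SE 0.15, adjusted p = 0.913), and the labels do not place that probe set relative to the deleted part, so it does not check the labels. Of the markers of gonadal and coelomic epithelium, Lhx9, Wt1 and Upk3b were bright in all 6 pools. Upk3b read 2920 to 3432 in the KO pools and 2675 to 3113 in the wild-type pools, while Wt1 was lower in every KO pool, at 1656 to 2253, than in any wild-type pool, at 2490 to 2756, without passing the test. The pools also differed in Xist, the RNA of the inactive X chromosome, which read 9312, 9314 and 9894 in the KO pools and 20.8, 13.3 and 69.9 in the wild-type pools, so the effects of genotype and of fetal sex cannot be told apart. None of the 8 genes is X- or Y-linked (chromosomes 1, 2, 12, 16 and 18). Ratios of 3' to 5' probe sets depend on RNA integrity and here also on the 2 cycles of amplification. For Gapdh they were 3.64 to 4.16 in KO and 3.48 to 4.25 in wild-type pools (exact permutation test, two-sided, p = 1). For b-actin they were 14.6 to 20.2 in KO and 14.9 to 19.4 in wild-type pools (exact permutation test, two-sided, p = 0.8). The b-actin ratios were far above those of Gapdh in both groups. The smallest p that this exact permutation test allows for 3 against 3 arrays is 0.1.

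Of the 8 genes, 3 were higher in the KO pools (Twist1, Zeb2 and Prrx1) and 0 were lower. Snai1 was too dim to be tested, and the others did not pass the test. By the brightest probe set of each gene, 3 of the 7 tested members rose, where 2.94% of all 12314 tested genes did. Of the 23 probe sets, 19 were bright enough to be tested, and 4 were left out by the filter on low values: the single Snai1 probe set, 1 of 4 for Zeb1 and 2 of 6 for Prrx1. In limma's test, adjusted by Benjamini-Hochberg over the 27022 probe sets tested and called under 0.05, 4.7% of all tested probe sets passed. Of the 19, 6 rose, where 2.74% of all did, and 0 fell, where 1.96% did. An unadjusted p under 0.05 was met by 13 of the 19, against 17.3% of all tested probe sets. Every KO value lay above every wild-type value in 13 of the 19 tested member probe sets, against 11.9% of all tested probe sets, and every KO value lay below in 0 of the 19, against 10.1%. The log2 fold change (KO minus wild-type) was above 0 in 18 of the 19, against 50.6% of all. Its median over the 19 was 0.50, beside 0.0037 for all tested probe sets. One Prrx1 probe set, 1432129_a_at, passed the filter only through its KO values. Without it, as counted after seeing the data, 6 of 18 rose, 17 had a change above 0, 12 did not overlap, 12 had an unadjusted p under 0.05, and the median was 0.49. Probe sets of 1 gene read the same transcripts and are not independent, and in pooled tissue fewer cells of a type and less RNA per cell cannot be told apart.

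**Figure D1:**
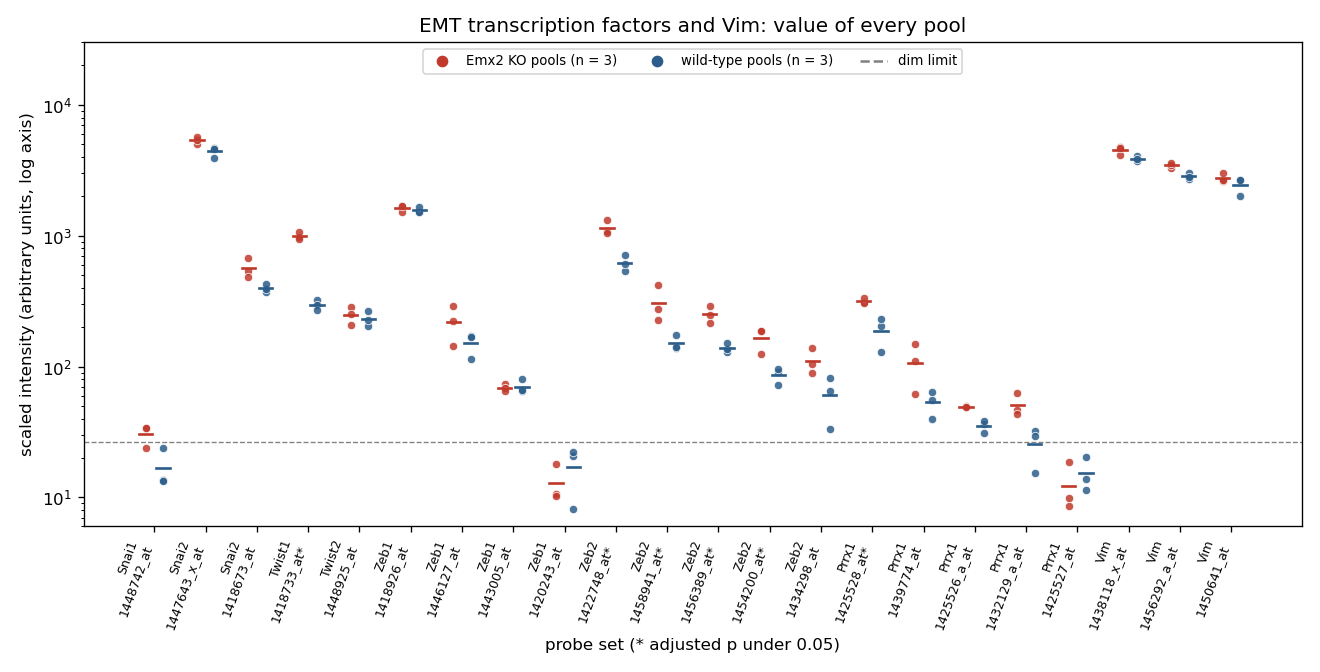
Scaled intensity (log axis) of every pool for 22 of the 23 probe sets, with KO pools in red to the left of wild-type pools in blue, horizontal bars for group means (n = 3 each) and a dashed line at the dim limit of 26.4. The KO and wild-type pools of Twist1 and of all 5 Zeb2 probe sets do not overlap, and those of Twist2 do. The remaining Prrx1 probe set, 1458004_at, was at the floor in all 6 arrays and is not drawn.

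Twist1 showed the greatest difference of the 8 genes. Its single probe set, 1418733_at, read 973, 939 and 1076 in the KO pools, against 324, 297 and 268 in the wild-type pools. The lowest KO pool was far above the highest wild-type pool, and the means were 996 ± 71.4 and 296 ± 27.6 (SD, n = 3 each), a ratio of 3.36. The log2 fold change was 1.75 (SE 0.13, 95% confidence interval 1.47 to 2.03, adjusted p = 1.3e-05). It rose in all 6 fits with 1 pool left out (1.68 to 1.82) and under all 11 other settings tried.

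Twist2, the closest relative of Twist1 and a factor of dermal and limb mesenchyme, did not pass. Its probe set read 285, 207 and 254 in the KO pools and 267, 203 and 227 in the wild-type pools, and the groups overlapped. The log2 fold change was 0.094 (SE 0.17, adjusted p = 0.845), with a 95% confidence interval of -0.28 to 0.47, so a rise of the size seen for Twist1 lies outside it. Within each array the log2 intensity of Twist1 minus that of Twist2 was 1.77, 2.18 and 2.08 in the KO pools and 0.28, 0.55 and 0.24 in the wild-type pools. The shift of this difference was 1.66 and its groups did not overlap (exact permutation test, two-sided, p = 0.1, the smallest possible; 0.15 after Benjamini-Hochberg adjustment over the 3 paralogue pairs compared).

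The start regions of the Twist genes are shown because this pair differed most in response. RefSeq's promoter table (GRCm38.p6, 250 bases before to 50 after a gene's start, printed 5′ to 3′ along the gene's strand) held a promoter for 6 of the 8 genes. Capitals mark the letters CCAAT and TATAA, searched on both strands and chosen after the sequences were seen.
Twist1, chr12:33957421-33957720, plus strand: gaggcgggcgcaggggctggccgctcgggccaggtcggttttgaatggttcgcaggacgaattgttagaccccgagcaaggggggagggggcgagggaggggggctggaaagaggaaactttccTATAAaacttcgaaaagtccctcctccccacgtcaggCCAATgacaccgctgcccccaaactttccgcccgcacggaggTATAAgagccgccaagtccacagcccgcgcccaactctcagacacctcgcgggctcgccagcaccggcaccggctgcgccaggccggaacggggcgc
Twist2, chr1:91801211-91801510, plus strand: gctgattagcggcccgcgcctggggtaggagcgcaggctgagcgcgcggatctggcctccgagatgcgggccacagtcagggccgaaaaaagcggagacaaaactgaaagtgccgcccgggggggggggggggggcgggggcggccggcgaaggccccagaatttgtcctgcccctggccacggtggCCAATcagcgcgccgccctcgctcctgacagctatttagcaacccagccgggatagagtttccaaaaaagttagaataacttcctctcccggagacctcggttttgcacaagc
Both windows hold 1 CCAAT, whose first base lies 89 bases before the Twist1 start (-89) and 63 before the Twist2 start (-63). TATAA occurs at -126 and -47 in the Twist1 window and not in that of Twist2. Of the 32851 promoters in the table, 37.4% hold CCAAT and 24.9% TATAA. The E-box CANNTG, held by 72.3% of all promoters, is in neither window, nor is CACCTG, a form of CANNTG that 20.2% hold. Among the members with a promoter in the table, only that of Snai1 holds CACCTG, at -126.

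Zeb2, a repressor of epithelial genes that also binds Smad proteins, rose at 4 of its 5 probe sets. The brightest, 1422748_at, read 1088, 1316 and 1051 in the KO pools, against 535, 711 and 606 in the wild-type pools. All KO pools were above all wild-type pools, with means of 1152 ± 143 and 617 ± 88.9 (SD, n = 3 each). This was a log2 fold change of 0.90 (SE 0.14, adjusted p = 0.00192). The remaining probe sets gave almost the same size of change.
Probe set 1458941_at read 417, 277 and 228 in the KO pools and 138, 141 and 174.5 in the wild-type pools (0.98, SE 0.22, adjusted p = 0.0192). Probe set 1456389_at read 249, 216 and 292 in the KO pools and 130, 136 and 150 in the wild-type pools (0.86, SE 0.17, adjusted p = 0.0122). In neither did the groups overlap.
For 1454200_at the values were 187, 188 and 125 in the KO pools and 72.6, 90.3 and 95.9 in the wild-type pools (0.94, SE 0.22, adjusted p = 0.027). The dimmest Zeb2 probe set, 1434298_at, read 88.6, 105 and 140 in the KO pools and 65.3, 33.2 and 82.1 in the wild-type pools and did not pass (0.96, SE 0.32, adjusted p = 0.125). Its groups did not overlap either, and its wild-type pools were spread over more than a 2-fold range. It passed without wild-type replicate 3 (1.23, adjusted p = 0.0402) and on the values as deposited (1.05, adjusted p = 0.0492), and its change was 0.58 without wild-type replicate 2. With 1 pool left out in turn, 1422748_at passed in all 6 fits (0.80 to 1.01). The dimmer 3 called probe sets did not pass in every such fit. The count of all called probe sets moved as well, from 1269 with all pools to between 720 and 1675. Probe set 1456389_at was lost without KO replicate 3 (0.74) and without wild-type replicate 1 (0.81). For 1458941_at the call was lost without KO replicate 1 (0.74) and wild-type replicates 1 and 2 (0.92 and 0.94). Probe set 1454200_at passed only without KO replicate 3 (1.13) and without wild-type replicate 3 (1.02), with changes of 0.82 to 1.13 over the 6 fits.

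Zeb1, the paralogue of Zeb2, did not pass at any probe set. Its brightest, 1418926_at, read 1684, 1505 and 1684 in the KO pools and 1508, 1518 and 1656 in the wild-type pools. The groups overlapped, and the log2 fold change was 0.057 (SE 0.098, adjusted p = 0.831) with a 95% confidence interval of -0.16 to 0.27. Probe set 1446127_at was less even, at 288, 221 and 142 in the KO pools and 170, 115 and 167 in the wild-type pools (0.49, SE 0.25, adjusted p = 0.347). Its change was 0.26 without KO replicate 1, 0.77 without KO replicate 3 and 0.31 without wild-type replicate 2. Probe set 1443005_at gave -0.025 (SE 0.22, adjusted p = 0.972). The fourth, 1420243_at, lay under the dim limit on all 6 arrays, at 10.3 to 17.9 in the KO pools and 8.16 to 22.4 in the wild-type pools, and was not tested. Within each array the log2 intensity of Zeb1 minus that of Zeb2, each by its brightest probe set, was 0.630, 0.194 and 0.680 in the KO pools and 1.496, 1.093 and 1.451 in the wild-type pools. The shift was -0.85, and the groups did not overlap (exact permutation test, two-sided, p = 0.1, the smallest possible; 0.15 adjusted over the 3 pairs).

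**Figure D2:**
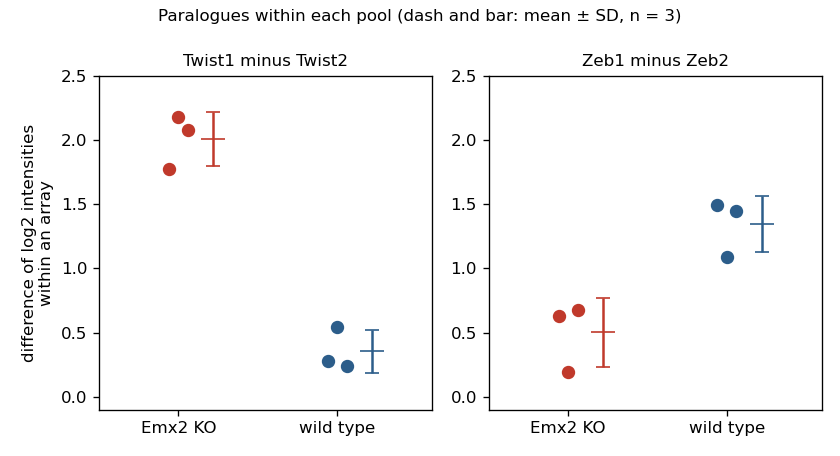
Difference between the log2 intensities of 2 paralogues within each array (vertical axis, log2 units), for KO pools in red and wild-type pools in blue, with mean ± SD (n = 3) beside the points. Twist1 minus Twist2 is higher in all 3 KO pools than in any wild-type pool, and Zeb1 minus Zeb2 is lower in all 3.

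Prrx1, read by 6 probe sets, rose at 1 of the 4 that were tested. The brightest, 1425528_at, read 313, 308 and 331 in the KO pools, against 204, 128 and 229 in the wild-type pools. The KO pools lay close together and above all wild-type pools, with means of 317 ± 12.2 and 187 ± 52.4 (SD, n = 3 each). This was a log2 fold change of 0.80 (SE 0.20, adjusted p = 0.0409). This call was close to the threshold: of the 6 fits with 1 pool left out it passed only without wild-type replicate 3 (0.97), and the change was 0.81, 0.82 and 0.77 without KO replicates 1, 2 and 3 and 0.89 and 0.55 without wild-type replicates 1 and 2. It was also lost with quantile normalization (0.76, adjusted p = 0.0611).
Probe set 1432129_a_at read 46.8, 63.2 and 43.0 in the KO pools and 15.3, 32.0 and 29.7 in the wild-type pools (1.04, SE 0.35, adjusted p = 0.124), with the wild-type mean under the dim limit. Probe set 1439774_at read 110, 62.0 and 150 in the KO pools and 56.0, 40.05 and 63.8 in the wild-type pools (0.95, SE 0.32, adjusted p = 0.126), and passed without KO replicate 2 (1.30). Only 1439774_at had overlapping groups among the 4 tested.
Probe set 1425526_a_at was at 48.8 to 50.2 in the KO pools and 31.0 to 38.6 in the wild-type pools (0.49, SE 0.26, adjusted p = 0.375). Both untested Prrx1 probe sets were dim on all 6 arrays. One of them, 1425527_at, gave 18.6, 8.59 and 9.85 in the KO pools and 13.9, 11.3 and 20.5 in the wild-type pools, with overlapping groups, and the other, 1458004_at, was below the floor of 7.98 on every array, where values have no order.

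The Prrx1 start region is shown because, alone among the members with a promoter in the table, it holds the letters TAATTA, a core that many homeodomain proteins bind and a motif held by 5.29% of all 32851 promoters. Capitals mark that match, whose first base is at -173. The data do not bear on binding there.
Prrx1, chr1:163313601-163313900, minus strand: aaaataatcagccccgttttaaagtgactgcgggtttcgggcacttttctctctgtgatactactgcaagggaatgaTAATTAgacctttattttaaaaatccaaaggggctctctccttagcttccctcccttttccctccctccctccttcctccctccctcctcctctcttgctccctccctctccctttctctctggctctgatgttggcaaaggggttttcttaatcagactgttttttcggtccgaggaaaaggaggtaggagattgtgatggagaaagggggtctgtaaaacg

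Snai2 (Slug), the Snail family member of neural crest and mesoderm, read above all wild-type pools in every KO pool at both probe sets, but neither passed. Probe set 1447643_x_at read 5049, 5386 and 5695 in the KO pools and 4715, 4610 and 3921 in the wild-type pools (log2 fold change 0.29, SE 0.090, 95% confidence interval 0.092 to 0.48, adjusted p = 0.101). Probe set 1418673_at read 535, 483 and 678 in the KO pools and 373, 391.8 and 425 in the wild-type pools (0.50, SE 0.15, 95% confidence interval 0.18 to 0.82, adjusted p = 0.0827). With quantile normalization the first of these passed (0.35, adjusted p = 0.0193); its name ending marks it as open to cross-hybridisation.

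Snai1, the Snail factor that initiates EMT at gastrulation in the mouse, was near the lower end of the array's range. It read 33.8, 33.9 and 23.7 in the KO pools and 13.6, 13.4 and 23.8 in the wild-type pools. KO replicates 1 and 2 were above all wild-type pools, and KO replicate 3 lay just under the highest wild-type pool. All 3 wild-type values were under the dim limit of 26.4, and the probe set was not tested (log2 difference 0.88; adjusted p = 0.366 in a fit without the filter). The paralogue pair Snai1 and Snai2 gave a shift of 0.59 (exact permutation test, two-sided, p = 0.2), which became -0.11 when the floor was set at the 40th percentile.

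Vim was bright in every pool and did not pass at any of its 3 probe sets. Probe set 1456292_a_at read 3320, 3440 and 3570 in the KO pools and 3004, 2723 and 2816 in the wild-type pools (log2 fold change 0.27, SE 0.083, adjusted p = 0.0886), and it passed with quantile normalization (0.30, adjusted p = 0.0356). Its groups did not overlap. Probe set 1438118_x_at gave 4136, 4741 and 4640 in the KO pools and 4039, 3752 and 3842 in the wild-type pools (0.21, SE 0.083, adjusted p = 0.194). For 1450641_at the values were 2638, 2651 and 3027 in the KO pools and 2683, 2682 and 1999 in the wild-type pools (0.19, SE 0.12, adjusted p = 0.475), and the groups overlapped. That change was 0.045 without wild-type replicate 3, the lowest pool, and 0.12 without KO replicate 3, the highest. The 95% confidence intervals of the 3 changes ended at 0.46, 0.39 and 0.44.

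**Figure D3:**
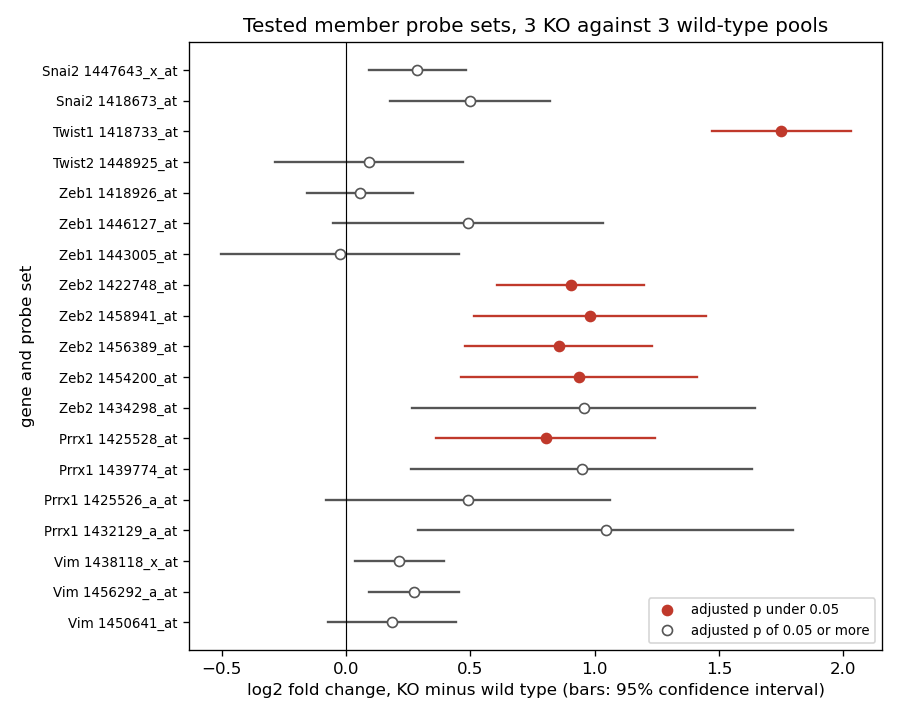
Log2 fold change, KO minus wild-type, of the 19 tested probe sets with 95% confidence intervals (limma, 3 against 3 pools). Filled red points passed an adjusted p of 0.05: Twist1 at 1.75, 4 Zeb2 probe sets between 0.86 and 0.98, and 1 Prrx1 probe set at 0.80.

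**Figure D4:**
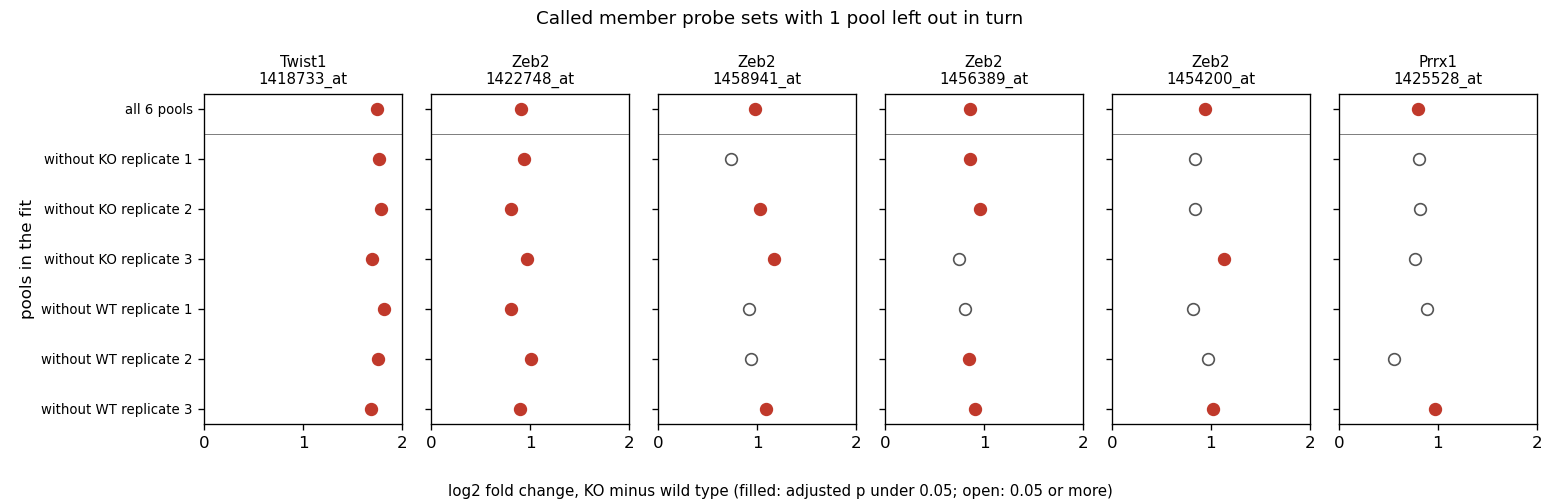
Log2 fold change of the 6 called probe sets (horizontal axis) in the fit of all 6 pools and with 1 pool left out in turn (rows); filled points passed an adjusted p of 0.05. Twist1 and the brightest Zeb2 probe set are filled in every row, and Prrx1 in that of all pools and in that without wild-type replicate 3.

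Genes around these factors were described by lists, with the brightest probe set standing for each gene. Of the 115 tested genes in the 6 lists, 19 rose and 4 fell, where 2.94% of all 12314 tested genes rose and 2.51% fell. The median change of all tested genes was -0.016 on the log2 scale.

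Among relatives of the members, 2 of 7 tested genes rose and 0 fell (median log2 fold change 0.21). Tcf21, a basic helix-loop-helix factor of visceral and gonadal mesenchyme, read 2265, 1863 and 2379 in the KO pools and 1415, 1376 and 1186 in the wild-type pools (0.71, SE 0.12, adjusted p = 0.00338). Prrx2, the paralogue of Prrx1, averaged 183 ± 20.7 in the KO pools and 110 ± 8.43 in the wild-type pools (SD, n = 3 each), a change of 0.73 (SE 0.18, adjusted p = 0.036). The call of Prrx2 was lost in every fit with 1 pool left out (0.68 to 0.82), and with the replicate number as a block (adjusted p = 0.0751).

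Among dimer partners, co-repressors and regulators of the factors' turnover, 1 of 25 tested genes rose and 0 fell (median 0.014). Over all tested genes 2.94% rose and 2.51% fell. In limma's test 7 of the 25 had an unadjusted p under 0.05, as did 18.2% of all tested genes. The E proteins with which Twist proteins pair gave 0.048 for Tcf3, 0.060 for Tcf12 and -0.40 for Tcf4 (adjusted p = 0.0645), and Kdm1a, the demethylase that Snail proteins recruit, gave -0.0033. Lmo4, a LIM-only protein known from frog neural crest as a cofactor of Snail proteins, rose to 427 ± 24.0 in the KO pools, against 156 ± 28.6 in the wild-type pools (1.46, SE 0.17, adjusted p = 0.00028). Id2, an inhibitor of E protein dimers, gave 0.37 at its brightest probe set (SE 0.10, adjusted p = 0.0589; 0.0274 with the replicate number as a block) and passed at a dimmer one (0.70, adjusted p = 0.00162).

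Signals known to induce EMT went both ways, with 5 of 24 tested genes higher and 2 lower (median 0.11). Egfr, the receptor of epidermal growth factor, rose to 746 ± 141 in the KO pools, against 38.0 ± 11.1 in the wild-type pools (4.32, SE 0.23, adjusted p = 6.2e-07). Its other tested probe sets gave 4.16 (adjusted p = 6.2e-07), 1.11 (adjusted p = 0.0186) and 0.92 (adjusted p = 0.0791), and the rest were too dim to be tested. Tgfb2, a ligand that induces Snail and Zeb genes in many epithelia, rose by 1.62 at its brightest probe set (SE 0.17, adjusted p = 0.000155). Its dimmer probe sets gave 0.88 (adjusted p = 0.0169), 0.66 (adjusted p = 0.0621) and 0.80 (adjusted p = 0.253). Met, the receptor of hepatocyte growth factor, rose by 1.67 (SE 0.20, adjusted p = 0.000392), and its ligand gene Hgf by 0.98 (SE 0.17, adjusted p = 0.00528). Bmp2 fell to 23.8 ± 11.03 in the KO pools, under the dim limit, against 81.7 ± 19.8 in the wild-type pools (-1.84, SE 0.35, adjusted p = 0.00784). It passed the filter only through its wild-type values. Bmp7 fell too (-0.87, SE 0.21, adjusted p = 0.0324), while Bmp4 rose (0.79, SE 0.12, adjusted p = 0.00226). Of 7 tested genes of other EMT-associated factors 0 passed in limma's test and 4 had an unadjusted p under 0.05, as did 18.2% of all tested genes. Those of smallest p were Wt1 (-0.40, SE 0.11, adjusted p = 0.0712) and Sox9 (0.74, SE 0.22, adjusted p = 0.0878).

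In the list of epithelial genes, among them known targets of Snail and Zeb repression, 1 of 29 tested rose, 2 fell and 26 did not pass (median -0.12). Over all tested genes 2.94% rose and 2.51% fell. In limma's test 6 of the 29 had an unadjusted p under 0.05, against 18.2% of all tested genes. Pkp2, a desmosomal plakophilin, fell to 578 ± 52.7 in the KO pools, against 1121 ± 42.7 in the wild-type pools (-0.96, SE 0.12, adjusted p = 0.000394). The gene of the simple-epithelial keratin Krt8 fell by 0.59 (SE 0.11, adjusted p = 0.00614), a call lost on the values as deposited (-0.49, adjusted p = 0.343), without the filter and without the intensity trend. Krt19, a keratin of mesothelium, rose by 1.02 (SE 0.18, adjusted p = 0.00525). Cdh1, which encodes E-cadherin, the best known target of these repressors, averaged 55.0 ± 19.4 in the KO pools and 76.2 ± 14.2 in the wild-type pools (-0.51, SE 0.28, adjusted p = 0.398). Cdh1, Tcf3, Tcf4, Tcf12, Kdm1a, Hgf, Bmp4 and Bmp7 were named after their values were seen.

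Of the mesenchymal genes, 10 of 23 tested rose, 0 fell and 13 did not pass (median 0.41). Lox, a collagen cross-linking enzyme, read 173, 196 and 224 in the KO pools and 77.7, 69.7 and 67.1 in the wild-type pools (1.46, SE 0.19, adjusted p = 0.000675). Postn, a secreted matrix protein, rose by 1.10 (SE 0.14, adjusted p = 0.000717), and Cdh11, a cadherin of mesenchyme, by 1.00 (SE 0.14, adjusted p = 0.000875). Itga5, a fibronectin receptor chain, rose by 1.06 at its brightest probe set (SE 0.27, adjusted p = 0.0412). This call was lost with the replicate number as a block (adjusted p = 0.0665). It was also lost without KO replicates 1, 2 or 3 (1.12, 1.00 and 1.05) or wild-type replicate 2 (0.81). The dimmer tested Itga5 probe sets gave 0.44 (adjusted p = 0.480) and 0.39 (adjusted p = 0.792). Cdh2, which encodes N-cadherin, gave 1826 ± 19.1 in the KO pools and 1798 ± 232 in the wild-type pools (0.031, SE 0.11, adjusted p = 0.924) and was named after its values were seen.

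**Figure D5:**
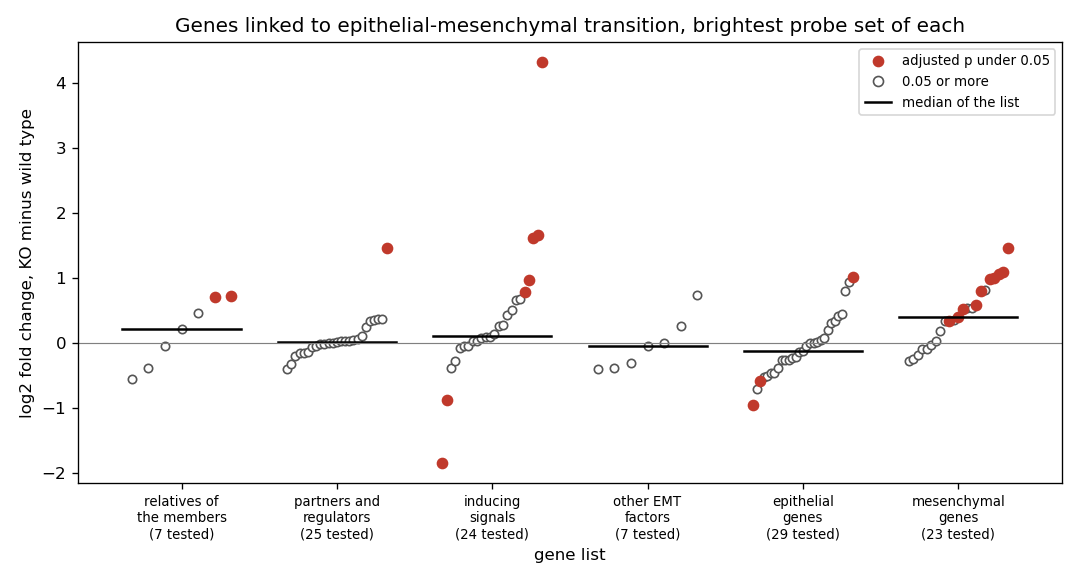
Log2 fold change, KO minus wild-type, of each tested gene in 6 lists (columns), with called genes filled and a black line at each list's median. Mesenchymal genes have a median of 0.41 with 10 called higher, and epithelial genes a median of -0.12 with 1 called higher and 2 lower.

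Some markers of neighbouring cell types differed between the groups too. Of 13 tested markers of subepithelial mesenchyme 5 rose and 0 fell, where 2.94% of all tested genes rose and 2.51% fell. Of these 5, 4 (Postn, Col3a1, Dcn and Tcf21) are also in the lists above and were counted there. The summed intensity over the 15 genes on the array was 25432 to 26907 in the KO pools and 18924 to 21710 in the wild-type pools. Bright probe sets weigh most in this and the sums below, such as that of Col3a1 (means of 7437 in KO and 5882 in wild-type pools). The sums therefore do not measure the share of a cell type. Its defining markers differed from each other: Pdgfrb rose by 0.85 (SE 0.11, adjusted p = 0.000809), and Pdgfra read 1554 to 1748 in the KO pools and 1737 to 1928 in the wild-type pools (-0.12, SE 0.097, adjusted p = 0.612). Of 12 tested endothelial markers 4 rose and 0 fell, with a summed intensity of 2191 to 2540 over 14 genes in the KO pools and 1283 to 1770 in the wild-type pools. Emcn, among these 4, lay under the dim limit in all wild-type pools (19.7 to 25.7) and passed the filter only through its KO values. Pecam1 was under the dim limit in all pools, and Cdh5 gave 0.58 (SE 0.24, adjusted p = 0.236). The summed intensity of 15 gonadal and coelomic epithelial markers was 28748 to 31788 in the KO pools and 29273 to 31874 in the wild-type pools, with 5 higher and 2 lower of 14 tested. These went both ways by large steps: Nr5a1, the nuclear receptor of the gonadal primordium, fell to 710 ± 101 in the KO pools, against 1666 ± 343 in the wild-type pools (-1.22, SE 0.15, adjusted p = 0.000469), and Upk1b, a uroplakin of mesothelium, rose by 1.44 (SE 0.15, adjusted p = 0.000153). Nr5a1 and Upk1b were named after their values were seen. Of 3 tested neural crest markers 0 passed in limma's test, also at an unadjusted p under 0.05; Sox10 read 29.1 to 47.7 in the KO pools and 30.4 to 57.5 in the wild-type pools. Among 6 genes of somites and muscle, Myf5 and Myod1, which define skeletal muscle precursors, were under the dim limit in every pool, but Pax3, a factor of dermomyotome and neural crest, rose. It read 86.9, 231.8 and 86.3 in the KO pools and 30.9, 30.3 and 42.2 in the wild-type pools (1.82, SE 0.36, adjusted p = 0.00988). Its relative Pax7, not tested, read 105.95 in KO replicate 2 and was below the floor in the other KO pools and in all wild-type pools. KO replicate 2 was thus the highest pool for both, though Pax3 was above all wild-type pools in KO replicates 1 and 3 too. With KO replicate 2 left out 5 member probe sets were called higher, not all of them the same ones. Prrx1 1425528_at (adjusted p = 0.102) and Zeb2 1454200_at (adjusted p = 0.122) were lost, and Prrx1 1439774_at was gained (adjusted p = 0.0309). The summed list was at 223 to 505 in the KO pools and 167 to 186 in the wild-type pools, with 1 of 2 tested genes higher. Pax3 and Pax7 were named after their values were seen. The summed markers of nephric duct (5 genes) were at 89.9 to 139.7 in the KO pools and 257 to 301 in the wild-type pools, with 2 of 3 tested lower. Those of germ cells (4 genes) were at 270 to 350 in the KO pools and 417 to 508 in the wild-type pools, with 2 of 4 tested lower. Of the defining germ cell markers, Dppa3 fell (-0.74, SE 0.19, adjusted p = 0.0389) and Pou5f1 did not pass (-0.63, SE 0.25, adjusted p = 0.211). Dppa3 passed in 2 of the 6 fits with 1 pool left out. Lhx1, among the 2 lower nephric duct genes, lay under the dim limit in all KO pools (19.3 to 22.3). It passed the filter only through its wild-type values. Of 7 tested blood markers 1 rose and 0 fell. Hbb-y was bright, at 12574.6 to 13570.5 in the KO pools and 12793.3 to 14995.8 in the wild-type pools (-0.12, SE 0.074, adjusted p = 0.460). The leukocyte marker Ptprc read 19.5 to 39.0 in the KO pools and 14.6 to 44.3 in the wild-type pools. Csf1r rose to 331 ± 49.6 in the KO pools, against 172 ± 44.6 in the wild-type pools (0.96, SE 0.20, adjusted p = 0.0128). Emcn, Lhx1 and Csf1r were named after their values were seen. The part of these cell types in the values of Twist1, Zeb2 and Prrx1 was not tested.

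Genes whose log2 values most resembled those of a member over the 6 arrays were sought among 22253 tested probe sets with 1 symbol, as a description with no test. Nearest to Twist1 were Osgin2 and Taok1 (Pearson r of 0.999 and 0.997), nearest to Zeb2 were Usp46 and Zfp608 (0.995 for both), and nearest to Prrx1 were Herc1 and Samd4 (0.999 and 0.997). For Snai2 they were 2310068J16Rik and Auh, for Vim Tmem39b and Adamts20, for Zeb1 Fbxo11 and Abi1, and for Twist2 Sertad2 and Gm5142, with r between 0.987 and 0.996. With 6 points such values are common: 278 probe sets had an r above 0.95 with Twist1, 166 with Zeb2 and 122 with Prrx1, and the points share the difference between the groups.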

How the data were processed

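The values were linear probe set intensities, as the authors deposited them. The submitters' processing notes name GCOS 1.2; its algorithm and scaling were not stated in the labels. Because array trimmed means differed up to 1.47-fold, each array was brought to the same 2% trimmed mean (308.12). Values under the 20th percentile (7.98) were raised to it before taking log2. Left out were 64 control probe sets and the dimmest 40% (mean under 26.4, the dim limit). The test was limma 3.58.1 under R 4.3.3 (intensity trend, two-sided, Benjamini-Hochberg over 27022 probe sets). On simulated data for this comparison, with 27022 probe sets tested, 35 of 95 2-fold and 77 of 91 4-fold changes were recovered. Far fewer probe sets were changed there than the 1269 called in the real data. The adjustment depends on that share, so the recovery in the real data may differ. The number of arrays limits the precision.

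Symbols came from the platform's annotation, where 34958 probe sets had 1 symbol, 932 several and 9211 none. In lists a gene was represented by its brightest probe set. The genes named were every member and Emx2 probe set, up to 4 called genes per list by size (filled to 2 by p), defining markers of cell types, and the 2 nearest genes per member by Pearson r. Members and lists were chosen with earlier results of these data known. Alternatives varied scaling, floor, filter, variance model, replicate block, cross-hybridising probe sets, and pools left out.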

Additional observations from a re-analysis of the deposited data

How the results depend on the processing

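Twist1 and the brightest Zeb2 probe set kept their direction in every fit tried; Twist1 passed in all of them, and this Zeb2 probe set in all but that without a filter on dim probe sets (adjusted p = 0.114). Leaving no probe sets out gave 152 called probe sets in all, 1 member probe set and 1 member gene (Twist1), and 5 list genes higher and 1 lower. Without the intensity trend there were 538 in all, 3 member probe sets, and 12 list genes higher and 2 lower. On the values as deposited 846 passed, 579 higher and 267 lower, beside 740 higher and 529 lower in the reported fit of 1269, with 2 list genes lower; the median change of all probe sets was then 0.098. With 1 pool left out in turn the called member probe sets numbered 2 to 7, the member genes called by their brightest probe set 2 to 3, the list genes higher 14 to 19 and lower 3 to 5, and all called probe sets 720 to 1675. The member count was 2 when wild-type replicate 1 was left out and 3 when KO replicate 1 or wild-type replicate 2 was. The total was 720 with wild-type replicate 1 left out, and 808, 829 and 788 with KO replicates 1, 2 and 3 left out. No member probe set was called lower in any fit. The shift of Snai1 minus Snai2, 0.59 as reported, turned to -0.11 with the floor at the 40th percentile.

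Beside that shift, signs turned for 5 changes that were near 0 in the reported fit. On the values as deposited Zeb1 probe set 1443005_at gave 0.069 and Emx2 0.047, and with a common median Lhx9 gave -0.0046. The leukocyte marker Ptprc gave -0.081 with the higher floor and -0.032 with array weights. With 1 pool left out the changes spanned -0.0100 (KO replicate 1) to 0.22 for Twist2, -0.084 to 0.069 (wild-type replicate 3) for that Zeb1 probe set, -0.23 to 0.12 (wild-type replicate 2) for Emx2, -0.047 (KO replicate 3) to 0.084 for Lhx9, and -0.42 (wild-type replicate 3) to 0.35 for Ptprc. The cause of these changes was not tested.

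The labels do not say what the replicate numbers stand for. Correlations of deviations from the group means were -0.065, 0.040 and -0.051 for same-numbered pools 1, 2 and 3. Between pools of unlike number they ran from -0.077 to 0.13. With means of only 3 pools per group, these values cannot decide whether same-numbered pools were handled together. With the replicate number as a block 1164 probe sets passed, 6 of them of members, and 17 list genes were higher and 4 lower. Not every pool correlated best with its own number.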
